A study of Mus musculus with 3 samples.

Results

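Yap1-bound regions to which the authors' table lists no gene were examined in mouse heart. A region belonged to the set when its gene list was empty, no promoter and no CpG island was counted to it, and it was shorter than 8000 bp. This rule took 3432 of the 22020 regions in the table (15.6%). It uses annotation and length and no signal value, but longer regions had higher signal, so the length limit is not independent of signal, and every region entered the table by being called in at least 1 library. Of 3657 regions with an empty gene list, 192 were left out for a CpG island and 36 for their length, 3 of them for both. The longest regions inside the limit measured 7860, 7634 and 7631 bp, and the shortest left out by length measured 8202, 8436 and 8583 bp.

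The data are chromatin immunoprecipitation sequencing (ChIP-seq) with an anti-Yap1 antibody on frozen whole heart tissue of wild-type male C57BL/6J mice. One group had a sham operation and the other had transverse aortic constriction (TAC), which narrows the aorta and puts a pressure load on the left ventricle, and hearts of both were taken 7 days later. The design gives 3 mice per operation, and there was 1 anti-Yap1 library for each. The sources used here do not say whether a library pooled mice, and the input library was not analysed here.

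Yap1 is a co-activator of transcription that the kinases of the Hippo pathway keep out of the nucleus. It does not bind DNA itself and reaches chromatin mainly through TEAD factors, often beside AP-1 sites. Much of its binding in other cell systems lies at distal enhancers, which can act on a promoter across long stretches of DNA, so the nearest gene is a position and not a known target.

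Since each operation had 1 library, the spread between mice is unknown and no difference was tested, and every statement of higher or lower is about this pair of libraries. The values are the average and the maximum signal over each region as the authors deposited them. Read depth and the scaling between the libraries are unknown. In whole tissue, fewer cells with Yap1 on a region and less Yap1 per cell cannot be told apart. Medians carry 95% order-statistic intervals and shares carry 95% Wilson intervals. Both were taken over regions and hold no spread between mice.

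The word intergenic held for most of the set but not for all of it when the regions were placed on RefSeq genes of the GRCm38.p6 assembly, whose main chromosomes are those of mm10. The midpoint lay outside every RefSeq gene in 2479 regions (72.2%). It lay in a long non-coding RNA gene in 691 (20.1%) and in a protein-coding gene in 249 (7.26%). A total of 195 regions (5.68%) held an annotated start, of which 185 held starts of non-coding genes only and 10 held the start of a protein-coding gene. The set is therefore called regions with no listed gene. By midpoint signal differed little, with a median average signal of 9.55 in sham and 6.59 in TAC outside every gene, against 9.64 and 6.69 within one. Regions holding a start had medians of 10.3 in sham and 7.07 in TAC with 47.7% called in TAC, against 9.55, 6.59 and 41.1% for those holding none. The 10 with a protein-coding start had a median log2 ratio of -0.24.

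No genome was used here, so base sequence is shown for starts that lie inside these regions, from 250 bases before to 50 bases after the start, as RefSeq gives them on GRCm38.p6. There were 215 such windows in 179 regions, 205 of them at non-coding starts. The 6 shown are non-coding windows with the TEAD motif in the 2 strongest regions that had one, the non-coding window with the AP-1 motif in the strongest region, and 3 protein-coding starts. Of those, Mylk3 had the highest signal, Ppargc1a was the gene nearest to 11 regions of the set, and Adgrf5 had the highest ratio of TAC to sham. Capitals mark, on either strand, the TEAD motif in Gm41907 and Gm40109, the AP-1 motif in 4732465J04Rik and the GATA motif in Mylk3. The windows of Ppargc1a and Adgrf5 held none of the 3 motifs.
Gm41907: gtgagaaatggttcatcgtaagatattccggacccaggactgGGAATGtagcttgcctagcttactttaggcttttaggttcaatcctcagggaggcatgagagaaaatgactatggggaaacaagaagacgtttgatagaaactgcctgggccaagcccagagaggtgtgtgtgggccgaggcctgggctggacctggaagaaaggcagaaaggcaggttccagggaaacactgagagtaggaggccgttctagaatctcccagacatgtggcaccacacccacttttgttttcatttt
Gm40109: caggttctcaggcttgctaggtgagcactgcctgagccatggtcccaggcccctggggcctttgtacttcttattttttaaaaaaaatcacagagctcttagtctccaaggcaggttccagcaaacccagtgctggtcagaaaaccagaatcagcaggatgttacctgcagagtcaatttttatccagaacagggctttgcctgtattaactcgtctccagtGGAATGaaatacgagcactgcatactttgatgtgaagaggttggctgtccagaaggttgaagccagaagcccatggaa
4732465J04Rik: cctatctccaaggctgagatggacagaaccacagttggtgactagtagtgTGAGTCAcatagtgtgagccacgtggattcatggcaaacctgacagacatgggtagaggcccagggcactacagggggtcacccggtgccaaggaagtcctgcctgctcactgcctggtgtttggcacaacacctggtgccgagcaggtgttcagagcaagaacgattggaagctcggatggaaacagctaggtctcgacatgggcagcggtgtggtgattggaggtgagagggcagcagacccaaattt
Mylk3: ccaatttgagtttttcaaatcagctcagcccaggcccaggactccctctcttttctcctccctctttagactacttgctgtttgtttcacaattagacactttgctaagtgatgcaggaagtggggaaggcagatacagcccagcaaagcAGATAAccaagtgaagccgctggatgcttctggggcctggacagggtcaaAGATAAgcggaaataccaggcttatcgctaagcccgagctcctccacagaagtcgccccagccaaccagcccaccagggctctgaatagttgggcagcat
Ppargc1a: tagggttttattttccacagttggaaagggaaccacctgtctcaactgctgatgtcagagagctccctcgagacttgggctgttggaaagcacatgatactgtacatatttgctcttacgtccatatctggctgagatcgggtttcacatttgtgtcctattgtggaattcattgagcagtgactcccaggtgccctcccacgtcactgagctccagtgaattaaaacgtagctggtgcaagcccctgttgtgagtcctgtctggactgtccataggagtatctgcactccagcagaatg
Adgrf5: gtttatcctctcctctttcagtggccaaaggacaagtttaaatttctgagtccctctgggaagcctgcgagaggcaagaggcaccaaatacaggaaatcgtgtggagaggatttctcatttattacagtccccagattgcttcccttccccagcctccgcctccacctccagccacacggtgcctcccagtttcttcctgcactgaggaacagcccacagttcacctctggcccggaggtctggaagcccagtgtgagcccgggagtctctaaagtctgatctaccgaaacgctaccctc

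Gm41907, a non-coding gene on the minus strand (window chr1:86472817-86473116), starts inside one of the 8 strongest regions, with an average signal of 22.3 in sham and 13.5 in TAC. Gm40109, a non-coding gene on the minus strand (chr3:101507797-101508096), starts in a region with 20.4 in sham and 11.4 in TAC. The plus-strand non-coding gene 4732465J04Rik (chr10:95772883-95773182) starts in a region with 21.7 in sham and 11.0 in TAC. Signal at these 3 starts was lower in TAC and all 3 regions were called in both libraries.

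Mylk3, the cardiac myosin light chain kinase, lies on the minus strand (chr8:85380992-85381291), and the region over this start had 20.7 in sham and 9.27 in TAC, a log2 ratio of -1.08. Ppargc1a encodes the co-activator PGC-1alpha, which drives mitochondrial and fatty acid oxidation genes. The region over one of its starts (minus strand, chr5:51567676-51567975) had 11.3 in sham and 4.27 in TAC, with a call in sham alone. Adgrf5 encodes an adhesion G-protein-coupled receptor, and the region over the start shown (plus strand, chr17:43360181-43360480) had 7.08 in sham and 8.03 in TAC, with a call in TAC alone.

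Searched on both strands, CATTCC was in 44 of the 215 windows (20.5%, 15.6 to 26.4%). The share was 14.7% of all 32851 RefSeq windows of that length and 16.6% of the non-coding ones. The AP-1 letters TGANTCA were in 23 windows (10.7%, 7.23 to 15.5%), against 7.81% of all windows and 9.31% of non-coding ones. The GATA letters AGATAA were in 34 windows (15.8%, 11.5 to 21.3%), against 11.2% and 14.0%. Each interval, here over windows, held the non-coding share. The non-coding shares are the closer comparison, since nearly all windows in the set are non-coding. Some windows overlap and share a match. With 1 window kept from each overlapping run, 192 remained, and the shares were 20.3%, 10.9% and 14.1%, against 16.7%, 9.43% and 14.0% of non-coding windows treated alike. A match is a description of letters, not a site of binding.

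Yap1 signal at the regions with no listed gene was lower in the TAC library at 3162 of them (92.1%), beside 94.6% of all regions. The average signal over a region ran from 3.03 through a median of 9.59 (9.49 to 9.67) to 29.3 in sham. In TAC it ran from 1.76 through a median of 6.61 (6.53 to 6.71) to 17.4. The ranges overlapped, but the highest value of the set was in sham and the lowest in TAC. The log2 ratio of TAC to sham, with a pseudocount of 1 added to both signals, had a median of -0.57 (-0.58 to -0.55), a 1.48-fold higher signal in sham.

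That lowering was shared by the whole table, whose median log2 ratio was -0.54. When both libraries were forced to the same distribution of signal by quantile normalization, the median of the set was -0.04. Direction is therefore also given relative to the median of all regions.

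On the deposited scale, 1639 of the 3432 regions (47.8%) were at least 1.5-fold lower in TAC, beside 43.0% of all regions. At least 1.5-fold higher in TAC were 43 (1.25%), beside 0.486% of all regions. Relative to the median of all regions, 240 (6.99%) were at least 1.5-fold higher, beside 4.42%, and 156 (4.55%) were at least 1.5-fold lower, beside 2.31%. The set thus held a larger share past that size than all regions in both directions. Its log2 ratios were also spread more widely, from -1.11 at the 5th percentile to 0.15 at the 95th, against -1.003 and 0.02 for all regions. The set was also weaker and shorter than all regions, whose median average signal was 10.6 in sham and 7.46 in TAC and whose median length was 2114 bp. The part of signal and length in that spread was not tested. The same shares for the classes most like the set are given below.

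**Figure D1:**
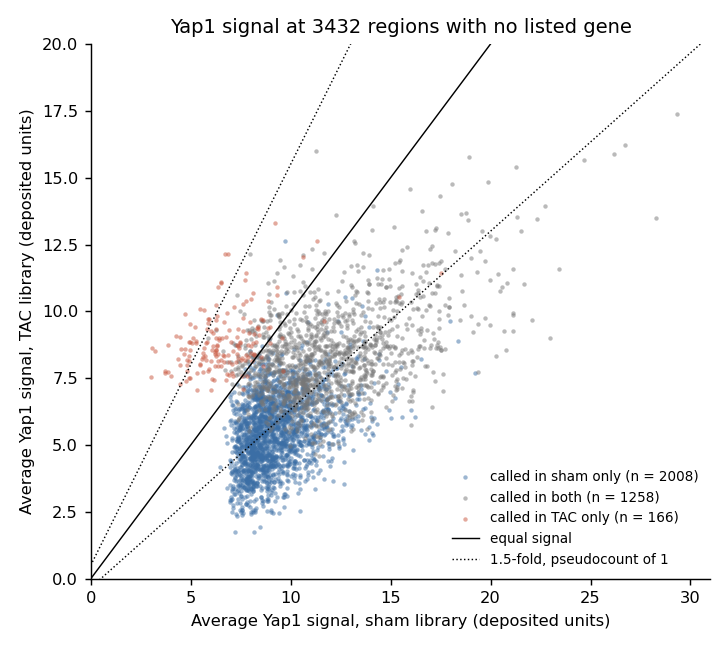
Average Yap1 signal in the sham library (horizontal axis) against the TAC library (vertical axis), in deposited units, for the 3432 regions with no listed gene. Each point is a region coloured by the library in which it was called, and the dotted lines mark a 1.5-fold difference with a pseudocount of 1. Most points lie below the line of equal signal, and the 166 regions called in TAC alone lie mainly above it.

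In sham 3266 of the regions were called (95.2%, 94.4 to 95.8%), beside 96.6% of all regions. In TAC 1424 were called (41.5%, 39.9 to 43.1%), beside 48.7% of all regions, so the set lay below the whole table. Sham alone had a call at 2008 regions (58.5%), both libraries at 1258 (36.7%) and TAC alone at 166 (4.84%). Over all regions these shares were 51.3%, 45.3% and 3.40%. The regions called in both had median signals of 11.5 (sham) and 8.21 (TAC), a median length of 2411 bp and a median log2 ratio of -0.48. Those called in sham alone had 8.97 in sham and 5.53 in TAC, with a log2 ratio of -0.65.

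The 166 regions called in TAC alone were short, with a median length of 1233 bp. Their signal had medians of 6.50 in sham, the lowest of the 3 call classes, and 8.69 in TAC, the highest of them. Their median log2 ratio was 0.38, and 10 of them had a sham signal at or above the TAC signal. All 43 regions at least 1.5-fold higher in TAC on the deposited scale were among them. The choice by call favours a higher TAC signal, so these values describe the class and test nothing. They were scattered over 20 chromosomes and lay nearest to 162 different protein-coding genes, at most 2 regions to a gene. The 3 with the highest log2 ratio were 1080, 992 and 914 bp long.

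The highest of these, 198 kb from Zbtb20, a zinc finger repressor of transcription, was chr16:42676608-42677688, with an average of 3.06 in sham and 8.65 in TAC, a log2 ratio of 1.25. Next was chr8:89956244-89957236, 290 kb from Tox3, an HMG-box protein, with 3.19 and 8.50. The one after it was chr16:32125138-32126052, 16.7 kb from Nrros, a regulator of TGF-beta1 activation, with 3.03 and 7.55. Their maxima were 7, 7 and 5 in sham and 11, 18 and 13 in TAC, where the medians over the whole set were 21 and 15. These 3 were chosen after their values were seen.

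Length and strength went with the calls. Regions merged from 2 or more intervals numbered 1258, the same as those called in both libraries, so length is not independent of the calls. Among 1171 regions under 1500 bp, 24.0% were called in TAC. Relative to the median of all regions, 13.7% of them were at least 1.5-fold higher and 6.40% at least 1.5-fold lower. Among 287 regions of 4000 bp or more, 77.4% were called in TAC, 1.05% were that much higher and 1.05% that much lower, so the ratios of short regions were spread more widely in both directions. The median log2 ratio fell with length, from -0.53 (-0.55 to -0.50) in the shortest class to -0.61 (-0.64 to -0.58) in the longest.

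Other distal regions of the table gave the closest comparison. These had no promoter and no CpG island and the same length limit but did carry a listed gene, either within the gene body (7017 intragenic regions) or beside it (960 gene-flanking regions). The median log2 ratio was -0.59 (-0.60 to -0.59) for intragenic, -0.54 (-0.56 to -0.50) for gene-flanking and -0.51 (-0.53 to -0.50) for 2360 promoter regions without a CpG island. Regions with no listed gene thus lay between the intragenic and the gene-flanking ones. The difference from intragenic regions was 0.03, was 3.39e-05 among regions called in both libraries, and turned to -0.01 when the maximum signal replaced the average. Relative to the median of all regions, 6.15% of gene-flanking, 5.93% of promoter and 4.38% of intragenic regions were at least 1.5-fold higher, against 6.99% here. At least 1.5-fold lower were 2.60%, 1.99% and 3.55%, against 4.55% here. The 5th and 95th percentiles were -1.05 and 0.09 in gene-flanking and -1.06 and 0.01 in intragenic regions, against -1.11 and 0.15 here.

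The share called in TAC was 41.5% with no listed gene, 33.9% (32.8 to 35%) in intragenic, 39.2% (36.1 to 42.3%) in gene-flanking and 46.3% (44.3 to 48.3%) in promoter regions without a CpG island. All regions were split into 5 equal classes of mean signal. Regions with no listed gene were called in TAC more often than intragenic ones in the 4 lower classes, with 59.0% against 51.8% in the middle class. In the highest class the shares were 96.2% and 96.7%. A total of 31% of the regions with no listed gene fell in the lowest class of signal and 8.36% in the highest.

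**Figure D2:**
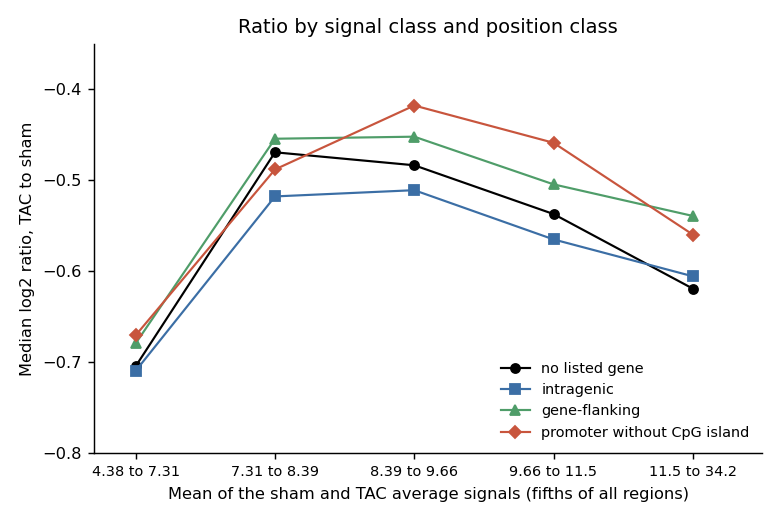
Median log2 ratio of TAC to sham (vertical axis) in 5 equal classes of the mean of the sham and TAC average signals over all regions (horizontal axis, deposited units), for regions with no listed gene and 3 other position classes. In the middle class the medians were -0.48 with no listed gene, -0.51 intragenic, -0.45 gene-flanking and -0.42 at promoters without a CpG island.

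Regions with no listed gene took up an uneven share of the Yap1 regions of each chromosome. They made up 24.7% of the regions on chromosome 13 (244 of 988), 22.3% on chromosome 1 (316 of 1415) and 21.4% on chromosome 3. The share was 9.38% on chromosome 19, 10.3% on chromosome 7 and 10.8% on chromosome 11. Chromosome X held 32 and chromosome Y none of its 4 regions. The median log2 ratio by chromosome ran from -0.64 on chromosome 9 to -0.49 on chromosome 5, and was above that of the intragenic regions on 17 of 20 chromosomes.

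The typical region with no listed gene lay 42.1 kb from the nearest protein-coding gene body, with quartiles of 18.4 and 105.9 kb. A total of 908 (26.5%) lay 100 kb or more away and 312 (9.09%) lay 250 kb or more away, the farthest at 1381 kb. Up to 100 kb the log2 ratio hardly changed, from -0.54 under 10 kb to -0.56 between 50 and 100 kb. From 100 to 250 kb the median was -0.59 (-0.62 to -0.55). At 250 kb or more the median was -0.69 (-0.73 to -0.64), with 9.10 in sham and 5.75 in TAC.

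These most distant regions were also weaker and shorter, and 34.9% of them were called in TAC. Their median length was 1516 bp, against 1818 bp for the other 3120, and 46.8% of them against 29.5% fell in the lowest class of mean signal. Within each of the 5 classes of mean signal their median log2 ratio was the lower one. The differences were -0.06, -0.12, -0.08, -0.17 and -0.03 from the weakest class to the strongest. The classes are broad and length was not matched, and the part of signal and length in the lower ratio was not tested. The strongest class held 13 of them. By chromosome, the distant regions had the lower median on 17 of the 18 chromosomes with 5 or more, the exception being chromosome 7 with a difference of 0.06. On chromosomes 8, 9, 13 and 14 the difference was small, at -0.0005, -0.01, -0.02 and -0.03. The distant regions lay nearest to 163 different genes. These splits by signal and chromosome were chosen after the distance values were seen.

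**Figure D3:**
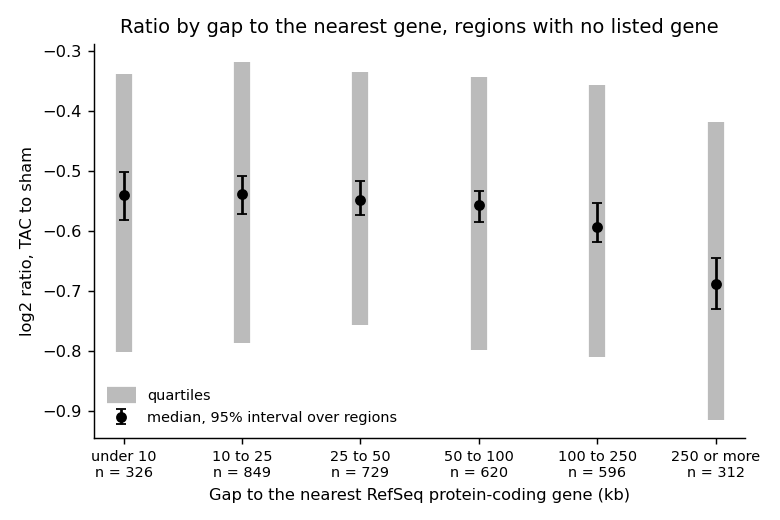
Log2 ratio of TAC to sham (vertical axis) by the gap to the nearest RefSeq protein-coding gene in kb (horizontal axis) for the 3432 regions with no listed gene. Points are medians with 95% order-statistic intervals over regions and grey bars span the quartiles, and the class at 250 kb or more, at -0.69, lies below the other classes.

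The strongest region of the set by average signal was chr8:126734613-126739794, 5181 bp long and 141 kb from Irf2bp2, a co-repressor of transcription. Its average was 29.3 in sham and 17.4 in TAC, its maximum was 141 and 69, and it ranked 26th of all 22020 regions in sham and 41st in TAC. The second, chr9:102776928-102782536, lay 43.5 kb from Amotl2, an angiomotin that binds Yap1 and holds it in the cytoplasm. Its average was 26.7 in sham and 16.2 in TAC. Its maximum of 183 in sham and 105 in TAC was the highest of the set in both libraries, and ranked 5th and 6th among all regions. A region with no listed gene was thus among the sharpest Yap1 signals of the whole table.

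The next was chr9:63107641-63110265, 27.9 kb from Skor1, a co-repressor of the SKI family, with 26.2 in sham and 15.9 in TAC. The region chr6:90505145-90510663, 13.3 kb from Klf15, a Krüppel-like factor of cardiac metabolism, had 28.3 in sham and 13.5 in TAC. Its log2 ratio of -1.02 was the lowest of the 8 strongest, and it ranked 34th of all regions in sham and 503rd in TAC. The region chr13:5602441-5606400 lay 255 kb from Klf6, another Krüppel-like factor, with an average of 24.7 in sham and 15.7 in TAC and maxima of 99 and 79.

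Of the remaining 3 among the strongest 8, chr11:51914914-51918291 lay 49.3 kb from Cdkn2aipnl and had 21.3 in sham and 15.4 in TAC. The region chr9:72638813-72641967 lay 15.9 kb from Rfx7, a winged-helix transcription factor, with 22.7 and 14.0. The last, chr1:86468932-86473812, holds the start of Gm41907. All 8 were called in both libraries and were lower in TAC, with log2 ratios from -1.02 to -0.44.

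By maximum signal, chr17:72971375-72978836, 29.4 kb from Lbh, a transcription cofactor of limb bud and heart, reached 106 in sham and 49 in TAC. The region chr5:32414030-32417960, 40.9 kb from Ppp1cb, a catalytic subunit of protein phosphatase 1, reached 85 in sham and 71 in TAC. It was close to even between the libraries by its maximum, with a log2 ratio of -0.26.

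Among the 1716 stronger regions, whose mean signal reached the median of the set, the 6 with the highest log2 ratio were all called in TAC alone. The first, chr7:110715132-110716715, lay 51.1 kb from Ampd3, an AMP deaminase, and had 6.72 in sham and 12.1 in TAC, a log2 ratio of 0.77. The region chr6:50973101-50974120 lay 249 kb from the nearest protein-coding gene and had 6.87 and 12.1. The region chr4:129262759-129264397 lay 1.36 kb from C77080, with 6.35 and 10.9. The others lay 53.2 kb from Errfi1, a feedback inhibitor of the EGF receptor (chr4:150799399-150800636, 6.53 and 11.1), 30.2 kb from Klhl2, a cullin adaptor (chr8:64880350-64881556, 6.50 and 11.1), and 26.6 kb from Kcmf1, a ubiquitin ligase (chr6:72926595-72927722, 6.29 and 10.3). In these 6 the sham signal was between 6.29 and 6.87, below the lower quartile of the set in sham, 8.36. The choice by a high ratio favours a low sham signal, so this describes the 6 and tests nothing.

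The 6 with the lowest log2 ratio were called in sham, and 2 of them also in TAC. The lowest was chr14:8330973-8332394, 13.4 kb from Fam107a, an actin-associated protein, with 12.7 in sham and 3.56 in TAC, a log2 ratio of -1.58. Next came chr7:145231072-145232666 within Tpcn2, a lysosomal cation channel, with 12.7 and 4.36. The region chr14:73630819-73634540 lay 34.7 kb from Sucla2, a subunit of succinyl-CoA ligase, with 16.01 and 5.76. The region chr4:135837176-135841130 lay 14.6 kb from Srsf10, a splicing regulator, with 16.2 and 6.06. The remaining ones had 17.1 and 6.43 at chr9:53063835-53067306, 31.1 kb from Ddx10, an RNA helicase, and 13.1 and 4.82 at chr10:62032203-62034391, 53.0 kb from Col13a1, a transmembrane collagen. All 6 had a sham signal above the upper quartile of the set, 11.4, and a TAC signal below the TAC median of 6.61. A low ratio among the stronger regions favours a high sham and a low TAC signal, so these values too describe the 6 and test nothing.

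The 3 longest regions had sham signals between the quartiles of the set, 8.36 and 11.4. The longest, chr5:23409171-23417031 near Kmt2e, had 11.0 in sham and 9.47 in TAC, above the upper quartile of the set in TAC, 8.10. The next, chr5:64385435-64393069 near Tbc1d1, a regulator of glucose uptake in muscle, had 9.83 and 6.70. The last, chr17:43250930-43258561 near the receptor gene Adgrf1, had 10.4 and 6.80. Their log2 ratios were -0.20, -0.49 and -0.55.

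Regions with no listed gene were joined into groups where the gap was under 50 kb. The 3432 regions formed 2011 groups, of which 1320 were a single region. The other 2112 regions (61.5%) lay in 691 groups of 2 or more, and 621 lay in 94 groups of 5 or more. The same shares were not computed for all regions or for other classes, so whether grouping is particular to this set is not known. Regions in groups of 5 or more had medians of 10.2 in sham, 6.91 in TAC and 2253 bp in length. Single regions had 9.23 and 6.34 and a length of 1542 bp. Their log2 ratios of -0.55 (-0.58 to -0.53) and -0.58 (-0.61 to -0.56) had intervals that overlapped.

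The largest group held 21 regions within 176 kb at chr12:79829729-80005677, with no other Yap1 region among them. The nearest genes were Rad51b, a homologous recombination factor, for 18 of them and Zfp36l1, a protein that promotes decay of AU-rich mRNAs, for 3. Average signal ran from 7.70 through 9.51 to 16.4 in sham and from 5.21 through 6.80 to 10.8 in TAC. All 21 were called in sham and 6 in TAC. The strongest was chr12:79904130-79908437, with 16.4 in sham and 10.8 in TAC. The weakest in sham, chr12:79864057-79865649, was the single one of the 21 with a higher TAC signal, 7.70 against 7.84. The log2 ratio of the group ran from -0.76 to 0.02 with a median of -0.48.

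The second group held 13 regions within 214 kb at chr8:120203528-120417924, all nearest to Gse1, a chromatin-associated coiled-coil protein, and 2 other Yap1 regions lay among them. Average signal ran from 9.11 through 10.4 to 13.9 in sham and from 5.34 through 7.00 to 10.1 in TAC. All 13 were lower in TAC and 2 were called there. Of these 13, 10 had their midpoint inside the RefSeq Gse1 gene, so the empty gene list of the table and the RefSeq annotation differ at this locus.

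The third group held 12 regions within 197 kb at chr13:37433779-37630287. Nearest to 10 of them was Ly86, which encodes MD-1, a partner of the Toll-like protein CD180, and nearest to 2 was Rreb1, a zinc finger transcription factor. Average signal ran from 7.35 through 10.7 to 15.5 in sham and from 5.31 through 7.43 to 9.88 in TAC. All 12 were lower in TAC, 6 were called there, and the log2 ratio ran from -0.89 to -0.20. The lowest ratio belonged to the strongest region in sham, chr13:37627146-37630287, with 15.5 in sham and 7.92 in TAC.

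**Figure D4:**
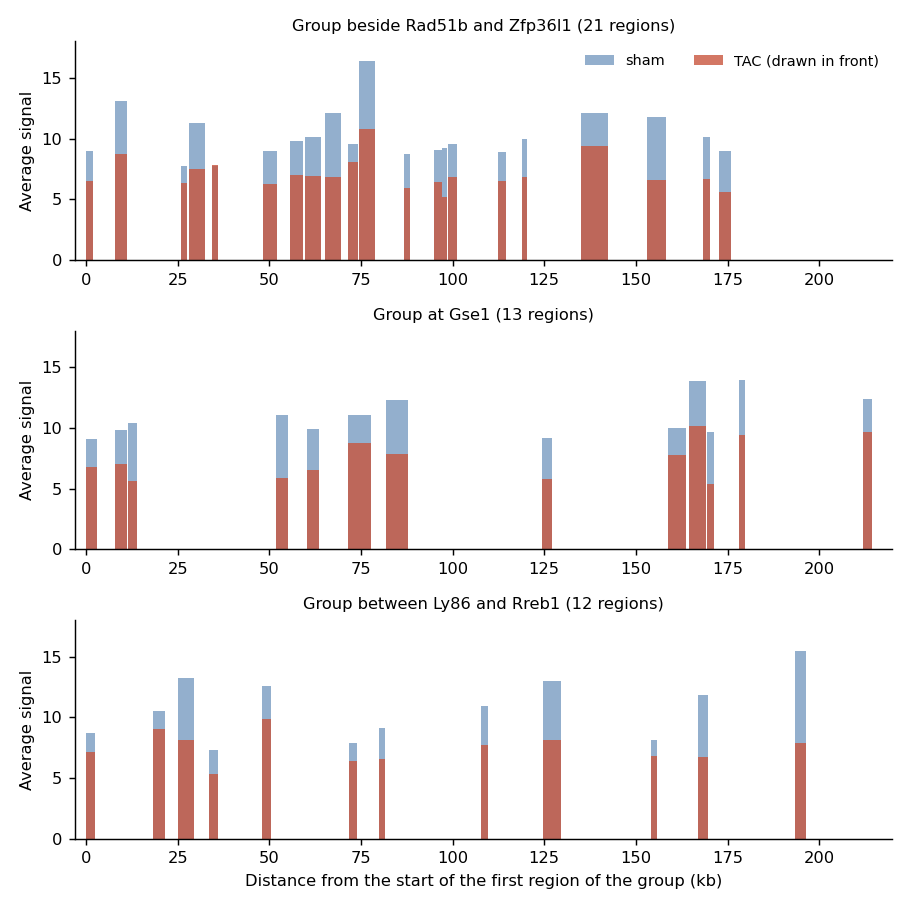
Average Yap1 signal (vertical axis, deposited units) of each region in the 3 largest groups, drawn to its length against the distance in kb from the start of the group's first region. Blue bars are sham and red bars, drawn in front, are TAC, and 1 region, in the group of 21, stands higher in TAC than in sham.

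Beyond these, 11 regions lay within 99.6 kb at chr14:63258995-63358590, where the nearest genes were Gata4, a cardiac transcription factor, for 6 and Blk for 5. Their log2 ratios ran from -1.22 to -0.23 and 5 were called in TAC. A group of 10 at chr1:92697190-92792126, beside Gpc1, a cell-surface proteoglycan, and Otos, had no call in TAC, with 8.48 to 13.3 in sham and 4.10 to 7.12 in TAC. These groups were named after their values were seen.

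The 3432 regions were nearest to 1786 of 21900 protein-coding genes (8.16%). A total of 1043 genes had 1 such region and 743 had 2 or more. Nearest to 8 or more were 34 genes, which together accounted for 354 regions. A region that overlapped a gene was counted to it at 0 kb, as were all 8 regions at Ablim1 and all 8 at Arhgap26. This limit was set after the values were seen, and regions of 1 gene share a locus, so they are not independent. By gene the median log2 ratio ran from -0.92 at Ppargc1a to -0.18 at Klf6, and 18 of the 34 medians lay below that of the whole set.

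At 4 of these genes every region lay below the median of all regions. Ppargc1a had 11 regions, with log2 ratios from -1.22 to -0.70 and medians of 9.85 in sham and 5.53 in TAC. The strongest, chr5:51898362-51901381, had 21.1 in sham and 9.25 in TAC. All of these regions but chr5:51123350-51126098, 328 kb away, overlapped the RefSeq Ppargc1a gene. The empty gene lists and the RefSeq annotation thus differ at this locus too. Zfat, a zinc finger regulator, had 9 regions from -1.34 to -0.56. Adamts15, a matrix protease, had 9 from -1.10 to -0.61, and Nampt, the rate-limiting enzyme of NAD salvage, had 9 from -1.17 to -0.66.

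At the other end of the order, Klf6 had 13 regions, with log2 ratios from -0.96 to 0.66 and 8 called in TAC. Gadd45g, a stress-response gene, had 10 with a median of -0.30 and a range from -0.85 to 0.48. S1pr1, the sphingosine-1-phosphate receptor of endothelium, had 9 with a median of -0.38. Myc had 12 with a median of -0.44, from -1.23 to 0.07, all at least 271 kb from the gene. The spread within these genes was wide, and at each the range crossed the median of the set.

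**Figure D5:**
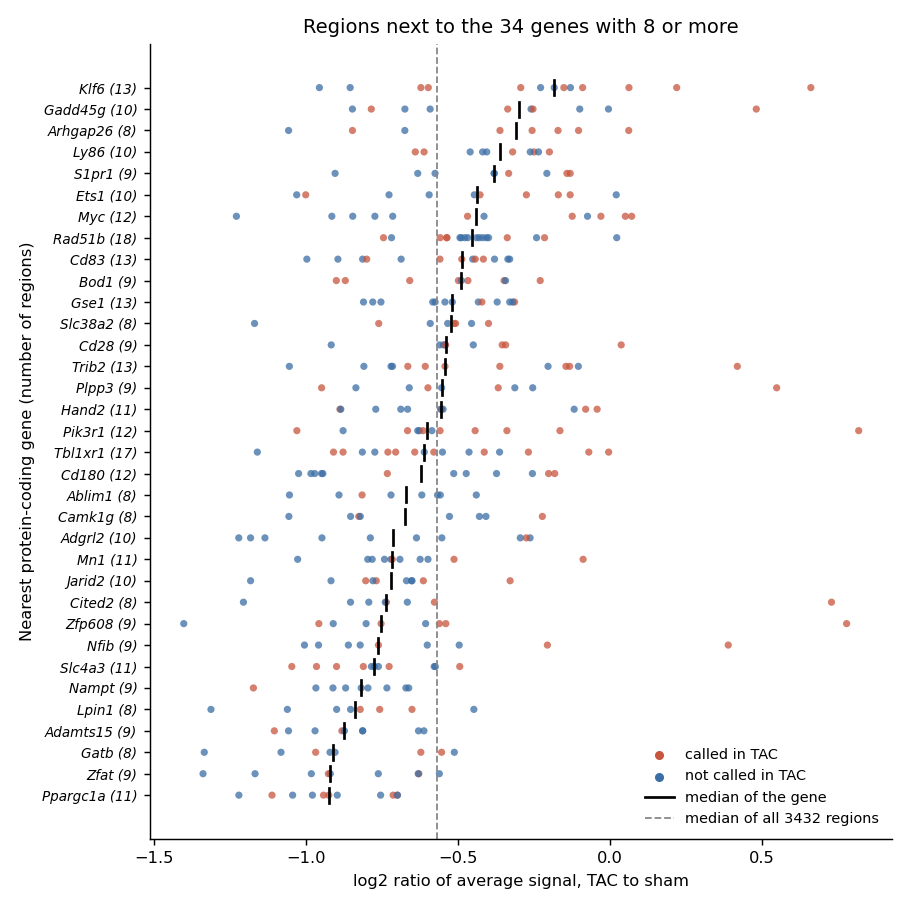
Log2 ratio of TAC to sham (horizontal axis) of each region overlapping or next to 34 protein-coding genes. These genes were nearest to 8 or more regions with no listed gene (vertical axis, ordered by median, number of regions in brackets). Points are regions coloured by whether they were called in TAC, black bars are medians of the gene, and the dashed line at -0.57 is the median of the 3432 regions. The medians run from -0.92 at Ppargc1a to -0.18 at Klf6.

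Lists of genes were read by which members were nearest to a region of the set and by the ratio of those regions. The counts stand beside a share of 8.16% for all 21900 RefSeq protein-coding genes and a median log2 ratio of -0.57 for all 3432 regions. The lists were chosen with earlier results of these data known. A share above 8.16% therefore describes a list, and enrichment was not tested. Among YAP and TEAD targets, 9 of 22 genes (40.9%) were nearest to 22 regions with a median log2 ratio of -0.49. They included the second strongest region of the set, next to Amotl2. Ankrd1, a stress-induced protein of the cardiac sarcomere, had chr19:36165786-36170275 at 45.9 kb with 21.1 in sham and 9.86 in TAC. Asap1, an Arf GTPase-activating protein, had chr15:64420903-64422345 with 13.05 and 9.68. Hippo pathway and TEAD genes were nearest to fewer, 6 of 22 genes and 9 regions, with a median of -0.63 and 1 call in TAC. The strongest of these were at Frmd6, a FERM-domain activator of the pathway (chr12:70810087-70814024, 13.9 and 7.16; chr12:70798172-70801116, 10.3 and 6.85), and at the angiomotin gene Amot (chrX:145582255-145583398, 11.5 and 7.13).

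Among genes of cardiomyocyte function, 10 of 23 cardiac transcription factors were nearest to 35 regions with a median of -0.66. Irx4, a ventricular homeobox factor, had chr13:73281123-73284525 with 15.8 in sham and 7.45 in TAC and chr13:73288559-73291660 with 15.6 and 7.52. In fatty acid oxidation, 8 of 18 genes were nearest to 22 regions with a median of -0.72, 11 of them at Ppargc1a. Most of those 11 overlapped the gene. Ppara, the nuclear receptor of fatty acid oxidation, had chr15:85675031-85680315 with 17.7 and 11.6. For calcium handling and ion channels, 10 of 25 genes had 13 regions with a median of -0.64. Atp2a2, the calcium pump of the sarcoplasmic reticulum, had chr5:122517744-122521769 with 17.4 and 10, and the potassium channel gene Kcnd3 had chr3:105374838-105377310 with 11.8 and 6.67. The sarcomere and Z-disc list had 8 of 28 genes and 13 regions with a median of -0.63, among them Myocd, the co-activator of SRF, with 14.3 and 8.86 at chr11:65364230-65368767. The medians of these 4 lists lay below the -0.57 of the set. So did those of the Hippo, fibroblast, neuronal and matrix lists and, by little, that of the growth factor list (-0.574 against -0.567). In the calcium list 7 of 13 regions lay below the median of the set, and in the sarcomere list 8 of 13.

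The medians of the signalling and matrix lists ran from -0.59 to -0.44. TGF-beta signalling had 10 of 24 genes and 19 regions with a median of -0.44. Smad6, an inhibitory Smad, had chr9:63895057-63897791 with 17.5 in sham and 8.57 in TAC, while the ligand gene Tgfb2 had chr1:186608967-186611133 with 12.8 and 9.67. Matrix and fibrosis genes had 9 of 24 and 16 regions with a median of -0.59, among them the basement membrane collagen Col4a1 with 16.05 and 9.50 at chr8:11170868-11174210. Growth factor and PI3K signalling had 7 of 23 genes and 24 regions with a median of -0.57. Of these regions 12 lay next to Pik3r1, a regulatory subunit of PI3-kinase, where chr13:102035048-102038021 had 15.6 and 7.13 and chr13:102049919-102051702 had 13.3 and 10.3.

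Among lists with 10 or more regions, the highest medians were those of AP-1 and immediate early genes and of endothelial genes. In the first, 8 of 23 genes were nearest to 40 regions with a median of -0.26, 24 called in TAC and 7 at least 1.5-fold higher relative to the median of all regions. For the whole set those shares were 41.5% and 6.99%, and for all regions 48.7% and 4.42%. The median distance to the gene was 250.3 kb. Klf4 had chr4:56112745-56114873 at 580.3 kb with 18.9 in sham and 15.8 in TAC, and Myc had chr15:62327756-62329689 at 337 kb with 15.97 and 14.6. Klf6 gave 13 and Myc 12 of the 40. Endothelial genes had 6 of 18 and 10 regions with a median of -0.19, of which 1 lay below the median of the set. Erg, an endothelial transcription factor, had chr16:95340456-95342384 with 9.40 and 9.80, and Kdr, the VEGF receptor, had chr5:75905582-75907355 with 10.9 and 9.38. Egfl7, a secreted endothelial factor, had chr2:26553689-26558697 with 12.1 and 8.59.

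Of the markers of other cell types, fibroblast genes had 2 of 13 (15.4%), macrophage and leukocyte genes 1 of 15 (6.67%) and neuronal genes 1 of 16 (6.25%). The smooth muscle (12 genes) and hepatocyte (14 genes) lists had none. With counts this small against 8.16% of all protein-coding genes, nothing is read from them. The median log2 ratio was -0.79 over 3 regions of the fibroblast list and 0.27 over 2 of the macrophage list, and the 1 neuronal region had -0.70. Dpt, a matrix protein of fibroblasts, had chr1:164770025-164771712 with 10.7 in sham and 5.17 in TAC, and Dcn had chr10:97312957-97314053 with 9.18 and 7.42. Ptprc, the leukocyte antigen CD45, was the nearest gene, at 405 and 473 kb, to chr1:137656292-137657539 with 8.36 and 7.67 and to chr1:137588211-137589379 with 5.27 and 8.89. Whether the mixture of cells in the tissue differed between the operations was not tested.

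Regions with no listed gene were compared with the nearest Yap1 region that carried a listed gene, at a median gap of 63.9 kb. The nearest such region was at a promoter in 2071 cases (60.3%), and the region with no listed gene was the stronger of the pair in 1109 (32.3%). Spearman's coefficient between their log2 ratios was 0.31 over 815 pairs under 25 kb apart, 0.13 over 1354 pairs from 25 to 100 kb and 0.03 over 1263 pairs at 100 kb or more. Both members of a pair come from the same libraries and several regions can share a neighbour, so the coefficients are descriptions across regions.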

How the data were processed

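Yap1 ChIP-seq of mouse heart was analysed for 1 sham and 1 TAC library. Per the submitters' processing notes, reads were aligned with BWA and regions called with MACS 1.4.2 on mm10. Per the file headers, the deposited table gives for each merged region the average and maximum signal of each library, a call mark per library, listed genes, and how many promoters and CpG islands it holds. The signal was used as deposited. The sources used here give no fragment length, calling threshold, scaling between libraries or read depth, so depth is unknown and no counting interval was computed. Column names pair each operation with a numeral of unexplained meaning. The input was not analysed here.

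The log2 ratio was log2((TAC + 1)/(sham + 1)) of average signal, and the fixed size was 1.5-fold, on the deposited scale and after subtracting the median of all 22020 regions (-0.54). A ratio with a pseudocount understates differences of weak regions. RefSeq genes were those of GRCm38.p6. For regions listed to 1 gene, the deposited distance to the start equalled that to a RefSeq start within 1 bp in 6372 of 8869 (71.8%). Nearest genes were taken by distance to the gene body, since the RefSeq start table used here held 17492 of 21900 protein-coding symbols and no start on chromosome 18, and that choice was made after seeing the table. Groups joined regions with gaps under 50 kb. The computations were tested on simulated data.

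Named regions were the 8 with the highest mean of both average signals, the 5 with the highest maximum in each library, the 6 highest and 6 lowest ratios among regions at or above the median mean signal, the 3 longest, the 3 largest groups, and the 3 strongest regions in each gene list, of which some are not printed. There were 16 gene lists with 318 genes. The members and the lists were chosen with earlier results of these data known. The motif search and sequences were added after seeing the data. Alternatives covered the pseudocount, maximum signal, quantile normalization, sex chromosomes, calls, weak regions, length, CpG islands, a 2-fold size, the intragenic comparison and the annotation. Python 3.11.15, pandas 2.3.3, numpy 2.4.6, scipy 1.17.1 and matplotlib 3.10.9 were used.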

Additional observations from a re-analysis of the deposited data

How the results depend on the processing

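Of 115 alternative values, 80 kept their direction and size, 34 moved and 1 reversed. The reversed value was the difference in median log2 ratio from intragenic regions, -0.012 with the maximum signal in place of 0.03, and it was 3.39e-05 among regions called in both libraries, and the cause was not tested. The median log2 ratio of -0.57 was -0.60 with a pseudocount of 0.5, -0.39 with 5, -0.58 with the maximum signal, -0.040 after quantile normalization, -0.48 among regions called in both libraries and -0.52 among regions at or above the median mean signal. Counts past 1.5-fold on the deposited scale, 43 higher and 1639 lower, were 6 and 655 with a pseudocount of 5, 230 and 101 after quantile normalization, 0 and 440 among regions called in both libraries, 6 and 708 at or above the median mean signal, and 3 and 316 at 2-fold. Counts relative to the median of all regions, 240 higher and 156 lower, were 110 and 4, 84 and 12, 111 and 38, and 71 and 7 under a pseudocount of 5, calls in both, the median mean signal and 2-fold. With the maximum signal 333 were higher and 363 lower, so that the lower count became the larger one. Regions called in both libraries had median signals of 11.5 in sham and 8.21 in TAC. Regions under 4000 bp had 9.36 and 6.46, with 38.2% called in TAC and 33.0% in both. The nearest annotated start lay at a median of 27.6 kb, at 82.9 kb for protein-coding starts, and the nearest protein-coding gene body at 42.1 kb. Leaving out regions whose midpoint lay in a RefSeq gene, an alternative chosen after seeing the data as was the distance to gene bodies, left every median and share within its interval and every count within 1.5 times. No paired analysis was possible because there was 1 library per operation, and no result came from a test. No library could be left out for the same reason. Unknown scaling and depth limit every value that compares the libraries.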
